A study of Mus musculus with 12 samples.

Results

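Haem breakdown and iron handling were examined through 10 genes in mouse bone marrow-derived macrophages: Slc48a1, Hmox1, Blvra, Blvrb, Fth1, Ftl1, Slc40a1, Tfrc, Slc11a1 and Slc11a2. The genes were taken by symbol from the deposited table, where each had 1 entry among 21899 genes, and all 10 passed the filter on low counts that kept 11656 genes for testing. The cells were primary macrophages grown from marrow, with genotype wt in every group. The 12 libraries fall into 4 groups of 3: untreated control, CS-PA/CNP alone, PgLPS alone, and the combination of PgLPS and CS-PA/CNP. The labels give no dose, time, strain, sex or age, and do not spell out the abbreviations or the cytokine used to grow the cells. The treatment labels also give no order of the agents in the combined group. Below, a rise or fall when CS-PA/CNP was added to, or on top of, PgLPS means the combined group against PgLPS alone. By its title the series belongs to work on a hydrogel against periodontitis and hypertension. Some samples are marked as biological replicates without a statement of separate mice or dishes, and the tests thus rest on the variation among these 3 libraries per group, which may be technical.

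Macrophages recover iron from the haem of old red cells. Slc48a1 (HRG1) moves haem out of the phagolysosome, and haem oxygenase 1 (Hmox1) opens the haem ring, which releases iron, carbon monoxide and biliverdin. Of the biliverdin reductases (Blvra and Blvrb), Blvra is the main one that turns this biliverdin into bilirubin in adult tissue. The iron is stored in ferritin, a shell of heavy chains (Fth1) and light chains (Ftl1), or leaves the cell through ferroportin (Slc40a1). Iron bound to transferrin enters through the transferrin receptor (Tfrc), and the proton-coupled metal transporters NRAMP1 (Slc11a1) and DMT1 (Slc11a2) move iron out of the phagosome and the endosome. During infection and inflammation macrophages are known for keeping iron inside the cell.

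Several of these genes are also controlled after transcription through the iron-responsive element, a short hairpin in the untranslated parts of the mRNA that iron regulatory proteins bind when iron is low. In a 5′ UTR this binding blocks translation, and in the 3′ UTR of Tfrc it protects the mRNA from decay. RNA counts therefore bear on mRNA amounts and not on the proteins. The hairpins are shown because they separate the ferritin genes and Tfrc in the way they are controlled. They were found in GENCODE M21 transcripts on the GRCm38 build by searching for an unpaired C, 5 paired bases, the loop CAGTGN with A, C or T as its last base, and 5 paired bases, with G-T pairs allowed. Of the 10 genes, 4 had a match in a UTR, against 123 of 21877 protein-coding genes (0.562%). The genes were picked for their part in haem and iron handling, so these shares are a description and no test of enrichment. Each sequence is 27 bases long, is written 5′ to 3′ on the strand of the gene, and has the 6 loop bases in capitals.
Fth1, 5′ UTR, chr19:9982733-9982759, plus strand: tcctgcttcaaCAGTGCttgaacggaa
Ftl1, 5′ UTR, chr7:45459780-45459806, minus strand: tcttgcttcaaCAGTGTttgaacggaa
Tfrc, 3′ UTR, chr16:32631220-32631246, plus strand: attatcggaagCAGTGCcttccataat
Tfrc, 3′ UTR, chr16:32631599-32631625, plus strand: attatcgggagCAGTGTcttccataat
Tfrc, 3′ UTR, chr16:32631664-32631690, plus strand: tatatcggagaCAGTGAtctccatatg
Tfrc, 3′ UTR, chr16:32631711-32631737, plus strand: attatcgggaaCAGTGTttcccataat
The ferritin genes thus had 1 match each before the coding part, and Tfrc had 4 after it. Slc40a1 had 1 match, in its 5′ UTR. A match is a description of the letters and was not tested for binding. The search misses hairpins of any other form, such as a stem with a bulge or a mismatch. A gene without a match may therefore still carry an iron-responsive element.

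Each library held 14992707 to 20082900 reads assigned to genes, and 13169 to 13511 genes had at least 1 read. All 7 macrophage markers were read in every group, with a summed level of 19723 to 29518 CPM (read counts scaled to the size of the library with the TMM factors of edgeR). The 8 erythroid markers summed to 0.273 to 1.83 CPM, and the beta-globin gene Hbb-bt was at 0 in all groups. The 8 neutrophil markers summed to 94.3 to 145 CPM in the groups without PgLPS and to 160 to 225 CPM in the groups with it, with none of the 8 at 0. They did not move together between the control and PgLPS groups. The means of S100a8, S100a9, Camp and Ngp were higher with PgLPS, with S100a9 at 59.8 and 102 CPM. Those of Mpo, Elane, Ly6g and Retnlg were lower, with Mpo at 1.21 and 0.773 CPM. Elane and Ly6g did not pass the filter on low counts. The 6 stromal markers summed to 5.88 to 53.6 CPM with PgLPS alone, with none at 0, and to at most 4.49 CPM in the other groups, where Lum was at 0 in the control and CS-PA/CNP groups and Dcn in the latter. The part of these markers in the results below was not tested. In bulk RNA, fewer cells of a type and less RNA per cell cannot be told apart. TMM scaling and scaling by library totals differed: with totals, the median change of all genes moved by -0.41 on the log2 scale in PgLPS against control, by -0.36 in both agents against control, and by at most 0.092 in the other comparisons. Changes below are relative to the TMM centre.

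PgLPS alone changed all 10 genes. Hmox1, Slc48a1, Blvrb, Fth1, Slc11a1 and Slc11a2 rose, and Slc40a1, Tfrc, Blvra and Ftl1 fell (edgeR quasi-likelihood test, Benjamini-Hochberg adjusted p at most 0.05 over 11656 genes). The background in this comparison was broad, with 32.2% of tested genes called higher and 31.6% called lower. The median log2 change of the 10 genes was 1.01, against -0.004 over all tested genes. CS-PA/CNP alone raised 8 of the 10, where 6.67% of tested genes were called higher and 5.61% lower. Blvra and Tfrc were not called. Added to PgLPS, CS-PA/CNP raised 7 of the 10, where 9.42% of tested genes were called higher and 10% lower (1170 of 11656). Blvra, Fth1 and Slc11a2 were not called there. In either comparison with CS-PA/CNP as the added agent, 0 of the 10 were lower in edgeR's test, in DESeq2 and at an unadjusted p under 0.05. The median log2 change of the 10 genes was 0.56 for CS-PA/CNP alone and 0.46 for CS-PA/CNP on top of PgLPS, against 0 and -0.005 over all genes. The 10 genes were chosen with earlier results of these data known. Their counts and medians beside those of all genes, here and below, are thus a description and no test of the set. Against control, both agents together raised 7 of the 10 and lowered Slc40a1 and Tfrc, where 29.7% of genes were called higher and 28.4% lower, and Blvra was not called. The comparisons with control share the same 3 control libraries, and PgLPS against control shares the PgLPS libraries with both agents against PgLPS. The share of called genes that were higher depended on the scaling. With library totals it went from 50.5% to 21.8% in PgLPS against control, from 54.3% to 41.9% in CS-PA/CNP against control, from 48.4% to 61.4% for CS-PA/CNP added to PgLPS, and from 51.1% to 21.3% in both agents against control.

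**Figure D1:**
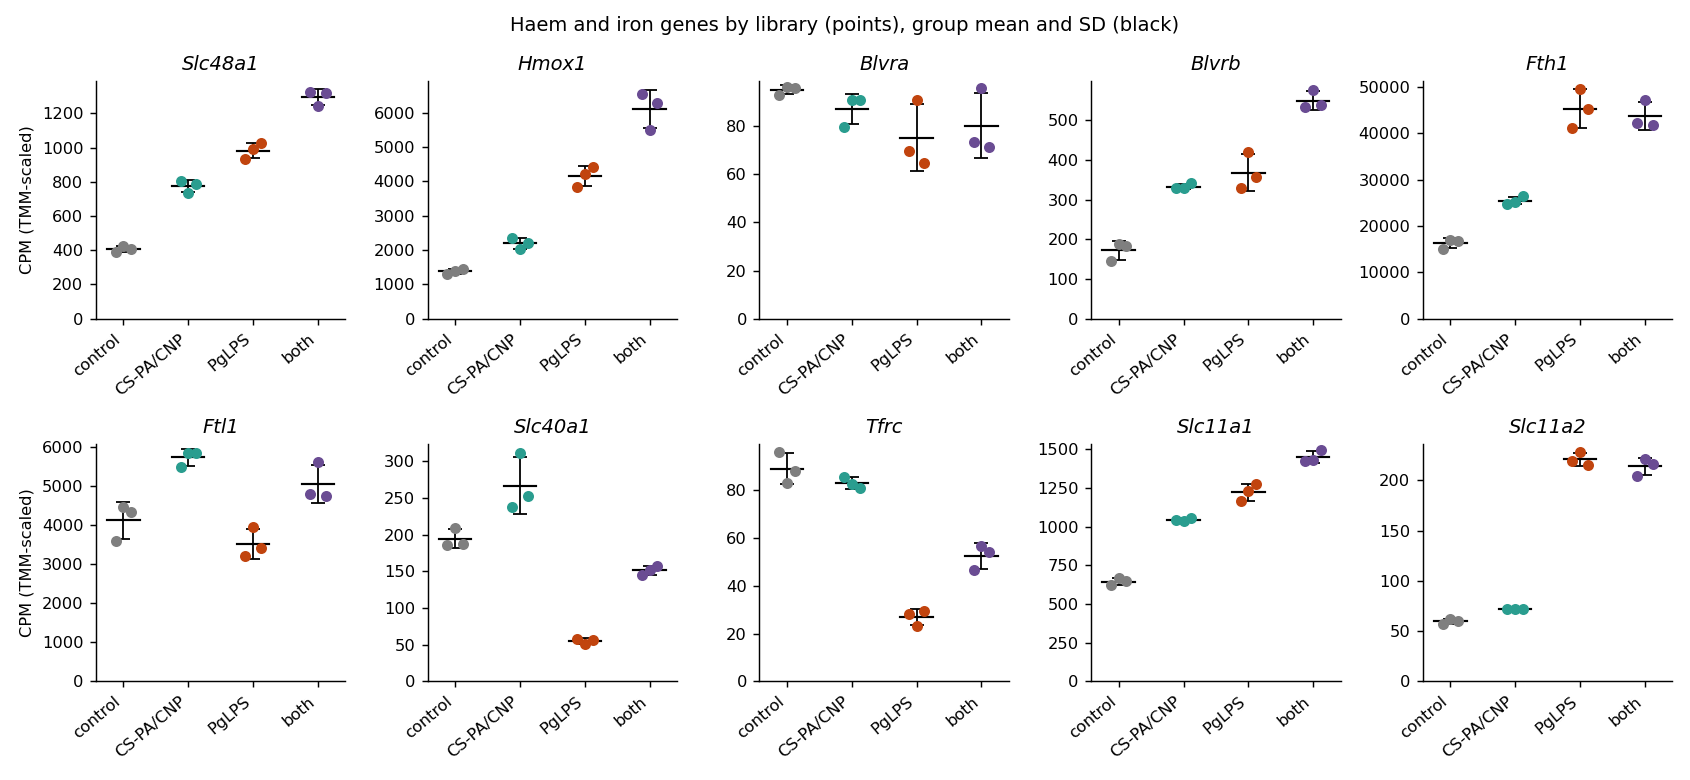
TMM-scaled CPM of each of the 10 genes (vertical axes, each from 0) in the 4 groups of 3 libraries; points are libraries, and black bars are the group mean and SD. The PgLPS libraries are the lowest for Slc40a1 (50.6 to 58.3 CPM) and Tfrc (23.3 to 29.3 CPM), while the libraries with both agents are the highest for Hmox1 (5507 to 6557 CPM).

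Slc48a1 (ENSMUSG00000081534, chromosome 15), which brings haem into the cytosol, rose under every treatment. Its level was 389, 424 and 405 CPM in the control libraries, 805, 736 and 788 CPM with CS-PA/CNP, 933, 989.9 and 1024 CPM with PgLPS and 1324, 1239.7 and 1318 CPM with both. No 2 groups overlapped, and the order from control through CS-PA/CNP and PgLPS to both agents held for every library. PgLPS raised it 2.42-fold (log2 change 1.27 ± 0.057 SE, edgeR adjusted p = 3.35e-13) and CS-PA/CNP alone raised it 1.91-fold (0.93 ± 0.057, adjusted p = 1.73e-09). On top of PgLPS, CS-PA/CNP raised it by a further 1.32-fold (0.40 ± 0.056, adjusted p = 3.59e-05). In GRCm38 its exons overlap those of Hdac7 on the opposite strand. No source used here gives the strand setting of the counting, and Hdac7 had 274 to 558 reads per library against 7243 to 21420 for Slc48a1.

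Hmox1 (ENSMUSG00000005413, chromosome 8), the enzyme that opens the haem ring, reached the highest level of all groups with both agents. It stood at 1300.5, 1393 and 1435 CPM in the control libraries and at 2353, 2021 and 2210.4 CPM with CS-PA/CNP. It stood at 3841, 4226 and 4413 CPM with PgLPS and at 6557, 5507 and 6276 CPM with both. The 4 groups did not overlap. The rise was 3.02-fold with PgLPS (1.60 ± 0.073, edgeR adjusted p = 4.43e-13), 1.59-fold with CS-PA/CNP alone (0.67 ± 0.072, adjusted p = 2.05e-06) and 4.44-fold with both against control (2.15 ± 0.074, adjusted p = 8.16e-15). CS-PA/CNP added to PgLPS raised it 1.47-fold (0.56 ± 0.071, adjusted p = 1.21e-05). By RPKM, the read count divided by the deposited gene length and by the library total, Hmox1 ranked 28th of 21899 genes in control cells, 19th with CS-PA/CNP, 13th with PgLPS and 6th with both. Its relative Hmox2, the haem oxygenase present without induction, rose with PgLPS as well (1.17 ± 0.072, adjusted p = 3.93e-11) and was not called with CS-PA/CNP alone (0.17 ± 0.072). The ratio of Hmox1 to Hmox2 RPKM was 22.3 ± 0.725 (SD, n = 3) in control cells, 31.8 ± 3.33 with CS-PA/CNP, 30.1 ± 2.29 with PgLPS and 43.8 ± 5.62 with both.

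The biliverdin reductases moved apart. Blvrb (ENSMUSG00000040466, chromosome 7), which also reduces flavins, stood at 146, 189 and 184 CPM in the control libraries, 328, 329 and 341 CPM with CS-PA/CNP, 329.5, 419.9 and 356 CPM with PgLPS and 534, 577 and 538 CPM with both. The CS-PA/CNP and PgLPS libraries overlapped, and every other pair of groups was separate. Blvrb rose 2.13-fold with PgLPS (1.09 ± 0.091, edgeR adjusted p = 3.92e-09), 1.92-fold with CS-PA/CNP (0.95 ± 0.091, adjusted p = 5.5e-07) and 1.49-fold when CS-PA/CNP was added to PgLPS (0.58 ± 0.089, adjusted p = 9.57e-05). Blvra (ENSMUSG00000001999, chromosome 2), the main biliverdin reductase of adult tissue, stood at 92.9, 96.4 and 95.9 CPM in the control libraries, 79.8, 90.9 and 90.9 CPM with CS-PA/CNP, 69.7, 91.0 and 64.8 CPM with PgLPS and 73.6, 95.8 and 71.3 CPM with both. Control libraries lay above those with CS-PA/CNP and those with PgLPS, and the libraries with both agents overlapped all other groups. Blvra fell 1.26-fold with PgLPS (-0.34 ± 0.12, adjusted p = 0.0156), a call that was lost without PgLPS replicate 1 (adjusted p = 0.0561) or PgLPS replicate 3 (adjusted p = 0.104). Neither CS-PA/CNP comparison called it (-0.13 ± 0.11 alone and 0.096 ± 0.12 on top of PgLPS). The ratio of Blvrb to Blvra RPKM was 1.60 ± 0.190 (SD, n = 3) in control cells, 3.37 ± 0.225 with CS-PA/CNP, 4.35 ± 0.421 with PgLPS and 6.10 ± 0.706 with both. The CS-PA/CNP libraries, at 3.18 to 3.62, lay below the PgLPS libraries, at 4.06 to 4.83.

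Ferritin mRNA made up a large part of the reads, and Fth1 (ENSMUSG00000024661, chromosome 19) was the gene with the most reads in all 4 groups. Fth1 took 1.75 to 1.96% of reads in control libraries and 2.79 to 2.94% in CS-PA/CNP libraries. PgLPS libraries gave it 3.59 to 4.22%, and those of the combined group 3.76 to 4.19%. In CPM it stood at 15073, 17062 and 16737 in control libraries, 24824, 25166 and 26419 with CS-PA/CNP, 41051, 49509 and 45299.6 with PgLPS and 42268, 47152 and 41773 with both. The PgLPS libraries and those with both agents overlapped, and both lay above the other 2 groups. Fth1 rose 2.78-fold with PgLPS (1.48 ± 0.067, edgeR adjusted p = 4.32e-13) and 1.56-fold with CS-PA/CNP alone (0.65 ± 0.066, adjusted p = 1.36e-06). CS-PA/CNP on top of PgLPS gave a log2 change of -0.050 ± 0.066 (adjusted p = 0.664), which was not called.

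Ftl1 (ENSMUSG00000050708, chromosome 7), the light chain, followed another order. It stood at 3595, 4475 and 4333 CPM in control libraries, 5501, 5866 and 5860.3 CPM with CS-PA/CNP, 3202, 3951 and 3427 CPM with PgLPS and 4805, 5629.9 and 4752 CPM with both. The libraries with CS-PA/CNP, alone or with PgLPS, were higher than all those without it and overlapped each other. CS-PA/CNP raised it 1.39-fold without PgLPS (0.47 ± 0.085, edgeR adjusted p = 0.000751) and 1.44-fold with PgLPS (0.52 ± 0.085, adjusted p = 0.000168). PgLPS lowered it 1.17-fold (-0.23 ± 0.085, adjusted p = 0.025), but the control and PgLPS libraries overlapped. That call was lost without control replicate 2 (adjusted p = 0.085), control replicate 3 (0.0611), PgLPS replicate 1 (0.115) or PgLPS replicate 3 (0.0805). Both agents against control raised Ftl1 (0.29 ± 0.085, adjusted p = 0.00654), a call that was lost without control replicate 1 (adjusted p = 0.0619) and a direction that reversed with library totals (-0.071, adjusted p = 0.429). A processed copy, Ftl1-ps1, had 43 to 102 reads per library against 41982 to 131133 for Ftl1. In GRCm38 the gene also overlaps Gm10252 and Gm22133.

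The balance of the chain mRNAs differed between groups by more than the spread of the libraries, with no test run on it. The ratio of Fth1 to Ftl1 RPKM was 1.53 ± 0.0796 (SD, n = 3) in control cells and 1.71 ± 0.0491 with CS-PA/CNP. It was 4.97 ± 0.133 with PgLPS and 3.34 ± 0.0933 with both. All libraries with PgLPS were at 3.24 or above and all without it at 1.74 or below, and the libraries with PgLPS alone (4.84 to 5.11) were above those with both agents (3.24 to 3.40). The deposited gene length of Fth1 is 3469 bases, so the ratio's absolute size depends on that length while its change between groups does not. Together the 2 genes took 2.17 to 2.47% of reads in control libraries and 3.40 to 3.60% in CS-PA/CNP libraries. Their share was 3.87 to 4.56% in PgLPS libraries and 4.19 to 4.70% in those of the combined group.

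**Figure D2:**
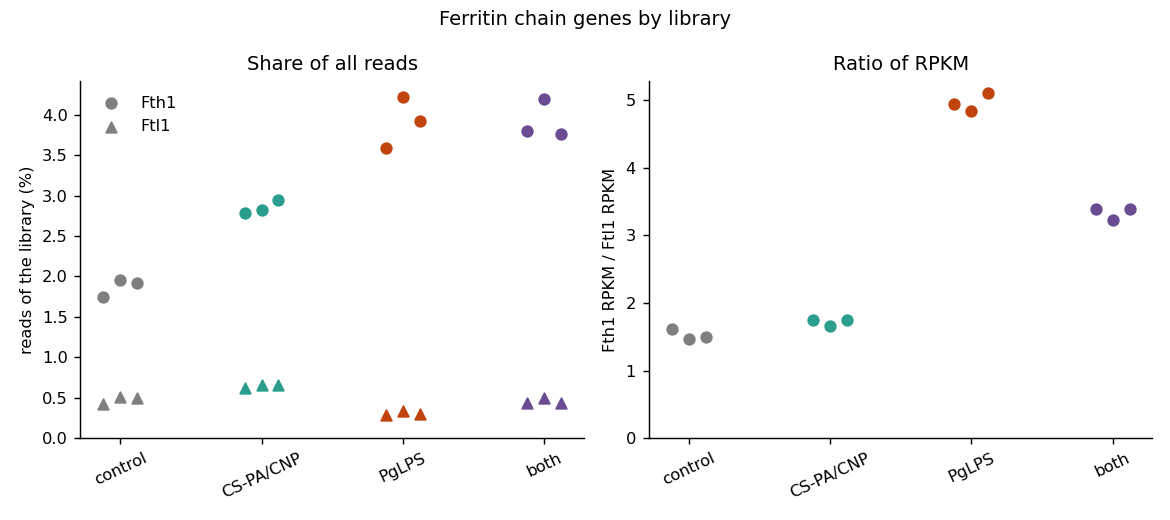
The left panel shows the share of each library's reads (percent) that fell on Fth1 (circles) and Ftl1 (triangles); the right panel shows the ratio of the RPKM of Fth1 to that of Ftl1, with 1 point per library in each of the 4 groups. Fth1 is highest in the 2 groups with PgLPS, and the ratio is 4.84 to 5.11 with PgLPS alone against 1.47 to 1.62 in control libraries.

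Slc40a1 (ENSMUSG00000025993, chromosome 1), the only known iron exporter of mammalian cells, showed the steepest fall of the 10 genes with PgLPS. It stood at 186, 209 and 188 CPM in the control libraries and at 237, 311 and 252 CPM with CS-PA/CNP. It stood at 58.3, 50.6 and 56.2 CPM with PgLPS and at 145, 152 and 157 CPM with both. The 4 groups did not overlap. PgLPS lowered it 3.53-fold (-1.82 ± 0.091, edgeR adjusted p = 1.89e-12), and CS-PA/CNP added to PgLPS raised it 2.75-fold (1.46 ± 0.091, adjusted p = 1.26e-09). With both agents it was still 1.28-fold below control (-0.36 ± 0.086, adjusted p = 0.00155). CS-PA/CNP alone raised it 1.37-fold (0.46 ± 0.085, adjusted p = 0.00107).

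Tfrc (ENSMUSG00000022797, chromosome 16), the receptor for iron-loaded transferrin, fell with PgLPS and rose when CS-PA/CNP was added. It stood at 95.8, 83.1 and 88.1 CPM in the control libraries, 85.5, 82.7 and 80.8 CPM with CS-PA/CNP, 28.4, 23.3 and 29.3 CPM with PgLPS and 46.4, 56.7 and 54.1 CPM with both. Control and CS-PA/CNP libraries overlapped, and the other groups were separate. PgLPS lowered Tfrc 3.30-fold (-1.72 ± 0.094, edgeR adjusted p = 6.99e-12), and CS-PA/CNP added to PgLPS raised it 1.94-fold (0.96 ± 0.096, adjusted p = 6.13e-07), to a level 1.70-fold below control (-0.76 ± 0.089, adjusted p = 5.43e-07). CS-PA/CNP alone gave -0.10 ± 0.087 (adjusted p = 0.54), which was not called. Of the genes with a hairpin match in the 5′ UTR, PgLPS raised Fth1 and lowered Slc40a1. PgLPS lowered Ftl1 by less (-0.23), with overlapping libraries and a call lost in 4 of 6 fits without 1 library. Tfrc, with matches in the 3′ UTR, fell. The part of the hairpins in these changes was not tested, and counts do not show translation.

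Slc11a1 (ENSMUSG00000026177, chromosome 1), or NRAMP1, a phagosomal metal transporter known for resistance to intracellular bacteria, rose under every treatment. It stood at 621, 669 and 647 CPM in control libraries, 1040.5, 1039 and 1054 CPM with CS-PA/CNP, 1165, 1228 and 1276 CPM with PgLPS and 1422, 1428 and 1492 CPM with both, with no overlap between groups. The log2 change was 0.92 ± 0.051 with PgLPS (edgeR adjusted p = 9.05e-12), 0.70 ± 0.051 with CS-PA/CNP (adjusted p = 1.79e-08) and 0.24 ± 0.051 with CS-PA/CNP on top of PgLPS (adjusted p = 0.00178).

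Slc11a2 (ENSMUSG00000023030, chromosome 15), or DMT1, which moves iron out of endosomes, changed most with PgLPS. It stood at 57.5, 62.1 and 59.7 CPM in control libraries, 71.9, 71.8 and 72.5 CPM with CS-PA/CNP, 219, 228 and 216 CPM with PgLPS and 205, 221 and 216 CPM with both. Control and CS-PA/CNP libraries did not overlap, and the PgLPS libraries overlapped those with both agents. PgLPS raised Slc11a2 3.70-fold (1.89 ± 0.059, edgeR adjusted p = 1.4e-15), CS-PA/CNP alone 1.21-fold (0.27 ± 0.059, adjusted p = 0.00423), and CS-PA/CNP on top of PgLPS gave -0.047 ± 0.056 (adjusted p = 0.635). In GRCm38 its exons overlap Gm5475 on the opposite strand. Per length, Slc11a1 was well above Slc11a2 in every library. The ratio of their RPKM was 18.5 ± 0.050 (SD, n = 3) in control cells, 24.9 ± 0.0597 with CS-PA/CNP, 9.50 ± 0.569 with PgLPS and 11.6 ± 0.462 with both.

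**Figure D3:**
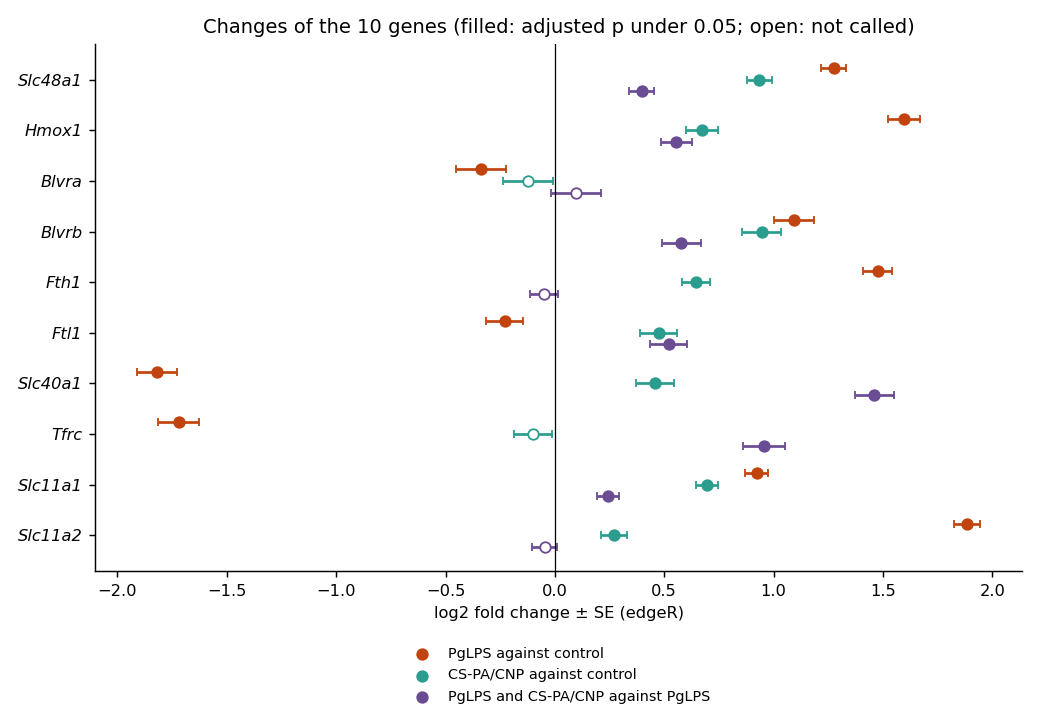
Log2 fold change with its SE (horizontal axis) of the 10 genes in PgLPS against control, CS-PA/CNP against control, and both agents against PgLPS; filled points passed the adjusted p of 0.05 and open points did not. Slc40a1 lies at -1.82 with PgLPS and at 1.46 when CS-PA/CNP is added, while Slc11a2 lies at 1.89 and -0.047.

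Among the 10 genes, the order of mean RPKM in control cells was Fth1 (5408 ± 319, SD, n = 3), Ftl1 (3552 ± 383), Hmox1 (905 ± 39.7), Slc11a1 (201 ± 6.28), Slc48a1 (170.1 ± 6.39), Blvrb (71.6 ± 9.39), Blvra (44.8 ± 0.591), Slc40a1 (24.8 ± 1.56), Tfrc (16.6 ± 1.3) and Slc11a2 (10.8 ± 0.345). With both agents Slc11a2, at 30.2 ± 1.08 RPKM, stood above Slc40a1, at 15.1 ± 0.620, and Tfrc, at 7.59 ± 0.749, and did not differ from Blvra, at 29.4 ± 4.77, beyond the spread. Neighbours in the control order lay apart by more than their summed SDs. The order also depends on the deposited gene lengths, and the SDs do not cover an error in those lengths. In the PgLPS libraries Slc40a1 and Tfrc were the lowest of the 10, at 5.29 ± 0.449 and 3.78 ± 0.490 RPKM. RPKM is scaled by library totals, so it serves to compare genes within a group and not groups.

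Whether CS-PA/CNP acted differently in the presence of PgLPS was tested by the interaction, its log2 change on PgLPS-treated cells less that on untreated cells. The interaction compares fold changes and not differences in CPM, so its calls hold for the log2 scale only. It was called for 6 of the 10 genes, 2 higher and 4 lower, where 7.46% of tested genes were called higher and 8.34% lower. With library totals the share of called interactions that were higher went from 47.2% to 63.7%. The interaction shares the control and PgLPS libraries with PgLPS against control. It was 1.06 ± 0.13 for Tfrc (edgeR adjusted p = 7.5e-06) and 1.003 ± 0.12 for Slc40a1 (adjusted p = 8.83e-06). It was below 0 for Fth1 (-0.70 ± 0.093, adjusted p = 2.35e-05), Slc48a1 (-0.54 ± 0.079, adjusted p = 7.33e-05), Slc11a1 (-0.45 ± 0.072, adjusted p = 0.000159) and Slc11a2 (-0.32 ± 0.082, adjusted p = 0.0107). The Slc11a2 value was not called with library totals (-0.22, adjusted p = 0.0646). For Hmox1 the interaction was -0.12 ± 0.10 (adjusted p = 0.52) and for Ftl1 0.047 ± 0.12 (adjusted p = 0.863), and neither was called. Blvrb gave -0.37 ± 0.13 (adjusted p = 0.0573), which was called with DESeq2 (adjusted p = 0.0434) and with no filter (0.00919). It was also called without control replicate 2 (0.0397), PgLPS replicate 1 (0.0181) or replicate 2 of both agents (0.0362). Blvra gave 0.22 ± 0.16 (adjusted p = 0.442).

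**Figure D4:**
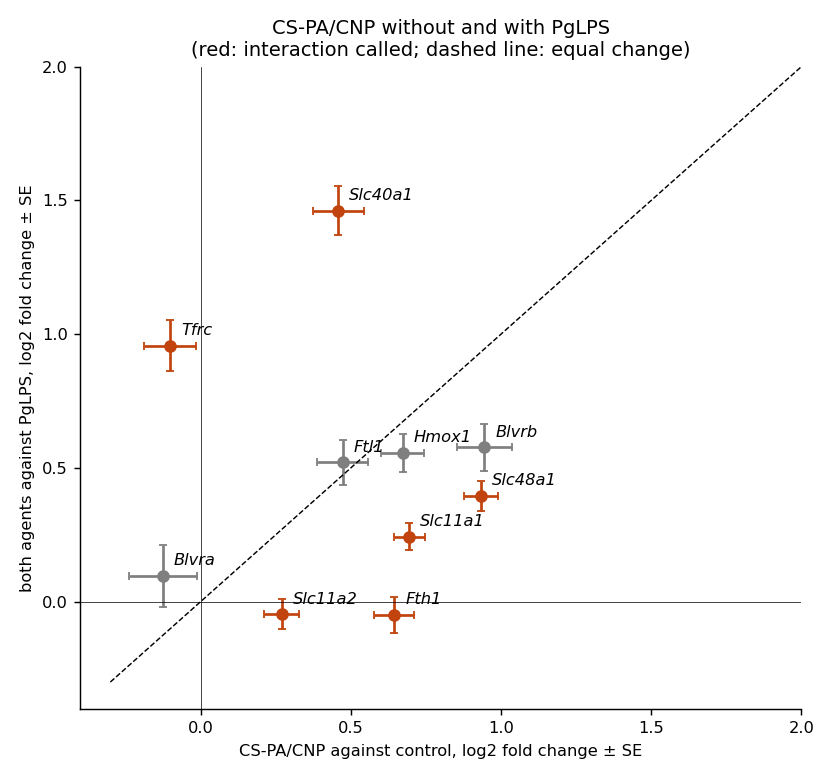
Log2 change with SE of each of the 10 genes for CS-PA/CNP against control (horizontal axis) and for both agents against PgLPS (vertical axis); red points have a called interaction, and the dashed line marks equal change. Tfrc and Slc40a1 lie above the line, with 0.96 and 1.46 on the vertical axis, and Fth1 lies below it at -0.050.

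Other genes of haem and iron metabolism were counted in 6 lists with 57 genes, of which 50 were tested. Each list's counts read against 32.2% of tested genes called higher and 31.6% lower with PgLPS, 6.67% and 5.61% with CS-PA/CNP alone, and 9.42% and 10% with CS-PA/CNP on top of PgLPS. Of the 8 haem synthesis genes, PgLPS raised 2 and lowered 5. The rise of Ppox, 1 of the 2, reversed with library totals and lost its call without control replicate 1 (adjusted p = 0.117), 2 (0.12) or 3 (0.0666) or PgLPS replicate 2 (0.229). Alas1, the rate-limiting enzyme, stood at 145 to 161 CPM in control libraries and at 905 to 966 CPM with PgLPS (2.60 ± 0.061, edgeR adjusted p = 1.55e-17). It also rose with CS-PA/CNP alone (0.91 ± 0.058, adjusted p = 2.77e-09) and on top of PgLPS (0.35 ± 0.057, adjusted p = 0.000173), the single gene of this list called in either comparison. Cpox (-0.69) and Urod (-0.46), enzymes of the later steps, fell with PgLPS. The median log2 change of the list with PgLPS was -0.40.

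Of the 7 tested genes for haem uptake, haem export and the second haem oxygenase, PgLPS raised 2 and lowered 4, against the 32.2% and 31.6% given above. The fall of Pgrmc1, a haem-binding membrane protein, lost its call without control replicate 2 (adjusted p = 0.0546) or PgLPS replicate 1 (0.0998) or 3 (0.0652). Cd163, the receptor for haemoglobin bound to haptoglobin, stood at 6.18 to 7.16 CPM in control libraries and at 12.7 to 19.0 CPM with PgLPS (1.36 ± 0.16, edgeR adjusted p = 4.58e-07) and fell when CS-PA/CNP was added (-0.58 ± 0.15, adjusted p = 0.0108). The latter call was lost without PgLPS replicate 1 (adjusted p = 0.0568) or 3 (0.0672). Lrp1, the receptor for haem bound to haemopexin, fell with PgLPS (-1.37 ± 0.10, adjusted p = 9.36e-10) and rose when CS-PA/CNP was added (0.38 ± 0.10, adjusted p = 0.0123). That rise was not called without replicate 1 (adjusted p = 0.0503) or 3 (0.0862) of both agents, and the libraries of the PgLPS and combined groups overlapped. With CS-PA/CNP alone the 7 log2 changes lay between -0.22 and 0.31.

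Of the 10 tested genes for iron uptake, transit and reduction, PgLPS raised 4 and lowered 4, and CS-PA/CNP on top of PgLPS raised 1 and lowered 4, where 32.2% and 31.6% of all genes, and 9.42% and 10%, were called. Lcn2, the siderophore-binding lipocalin, stood at 11.4 to 17.1 CPM in control libraries, 462 to 477 CPM with PgLPS and 114 to 125 CPM with both. Its log2 change was 5.09 ± 0.13 with PgLPS (edgeR adjusted p = 6.8e-17) and -1.98 ± 0.11 when CS-PA/CNP was added (adjusted p = 2.79e-10). Slc25a37 (mitoferrin 1), which carries iron into mitochondria, rose with PgLPS (2.30 ± 0.12) and with CS-PA/CNP alone (0.53 ± 0.11), and fell when CS-PA/CNP was added to PgLPS (-0.94 ± 0.11). Steap3, the ferrireductase of transferrin endosomes, fell with PgLPS (-1.56 ± 0.089) and rose when CS-PA/CNP was added (0.79 ± 0.090), the directions of Tfrc. Slc39a14 (ZIP14), which takes up free iron, rose with PgLPS (1.04 ± 0.12) and fell when CS-PA/CNP was added (-0.48 ± 0.12).

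Of the 5 tested partners of storage and export, PgLPS raised 4 and lowered Hfe, against the same 32.2% and 31.6%. Pcbp1 and Pcbp2 among the 4 reversed with library totals, and the call of Pcbp1 was lost without control replicate 1 (adjusted p = 0.196) or 3 (0.0957) or PgLPS replicate 2 (0.0722). Cp, the ferroxidase ceruloplasmin that works beside ferroportin, stood at 1.51 to 1.85 CPM in control libraries, at 514 to 568 CPM with PgLPS (8.33 ± 0.095, edgeR adjusted p = 3.47e-21) and at 173 to 182 CPM with both (-1.58 ± 0.060 against PgLPS, adjusted p = 2.11e-12). Cp and Slc40a1 changed in opposite directions in both comparisons. Ncoa4, the receptor that sends ferritin to the lysosome, rose with PgLPS (1.08 ± 0.067) and was not called when CS-PA/CNP was added (0.040 ± 0.065). Hamp, which encodes the hormone hepcidin that removes ferroportin from the membrane, had 1, 1, 6 and 2 reads in all over the 3 libraries of the control, CS-PA/CNP, PgLPS and combined groups and was not tested.

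The list for iron and haem sensing held 10 genes, of sensors and of regulators that are not sensors themselves. PgLPS raised 8 of the 10, where 32.2% of all genes were called higher, and 3 of the 8 (Ireb2, Mafg and Nfe2l2) reversed with library totals. CS-PA/CNP alone raised Keap1, Maff and Mafg, but the call of Maff (adjusted p = 0.0351) was lost in each of the 6 fits without 1 library (adjusted p = 0.0644 to 0.143). Spic, the transcription factor of red pulp macrophages that haem induces, rose with PgLPS (3.76 ± 0.13, edgeR adjusted p = 4.92e-15) and fell when CS-PA/CNP was added (-0.89 ± 0.11, adjusted p = 5.13e-06). Fbxl5, the ubiquitin ligase subunit that removes iron regulatory protein 2 when iron is plentiful, did the same (2.18 ± 0.085 and -0.82 ± 0.081). The iron regulatory protein genes had small log2 changes with PgLPS, at -0.030 ± 0.066 for Aco1, which was not called, and 0.26 ± 0.094 for Ireb2 (adjusted p = 0.0206). With library totals Aco1 was called lower (-0.44) and Ireb2 was at -0.15, and the call of Ireb2 was lost without control replicate 2 (adjusted p = 0.137) or 3 (0.114) or PgLPS replicate 1 (0.142) or 3 (0.0501). Bach1, the haem-sensing repressor of Hmox1, was not called with PgLPS (0.002 ± 0.093) and rose when CS-PA/CNP was added (0.31 ± 0.093, adjusted p = 0.0228). That rise was not called without PgLPS replicate 2 (0.19, adjusted p = 0.0962) or 3 (0.33, 0.0534), or without replicate 1 (0.31, 0.0617) or 3 (0.27, 0.0945) of both agents. Nfe2l2 (NRF2), an activator of Hmox1 and the ferritin genes, rose with PgLPS (0.28 ± 0.056), which was -0.13 with library totals, and fell when CS-PA/CNP was added (-0.31 ± 0.056, adjusted p = 0.000489). Of the 10 iron-sulfur cluster assembly genes, PgLPS raised Isca2 and Iscu and lowered 5, again against 32.2% and 31.6%. Iscu reversed with library totals, and its call was lost without control replicate 1 (adjusted p = 0.0876) or PgLPS replicate 2 (0.0815), as was that of Glrx5, which fell, without PgLPS replicate 1 (0.0519).

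**Figure D5:**
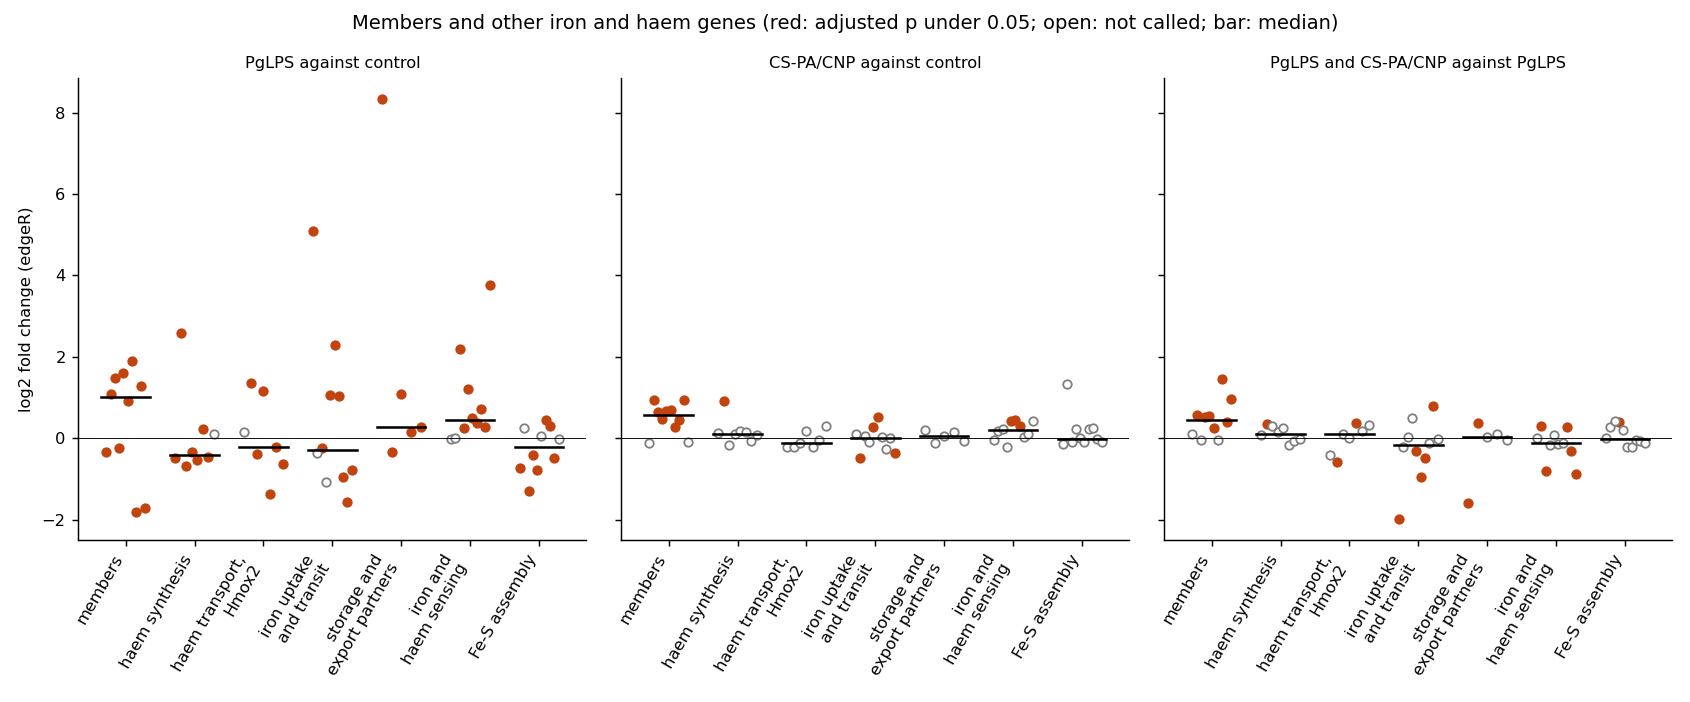
Log2 fold change (vertical axis) of the 10 genes (members) and of 6 lists of other haem and iron genes in 3 comparisons; red points passed the adjusted p of 0.05, open points did not, and bars are list medians. With CS-PA/CNP alone the median of the 10 genes is 0.56 while the other lists lie between -0.12 and 0.20. The genes and lists were chosen with earlier results of these data known, so the contrast is a description.

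The antioxidant response element, the site that NRF2 and small MAF proteins bind, was searched for by its core TGANNNNGC on both strands in RefSeq windows (GRCm38.p6) from 250 bases before to 50 after a gene start. Windows were held for Blvra, Blvrb, Fth1, Ftl1, Slc11a1 and Tfrc. Windows of Hmox1, Slc48a1, Slc40a1 and Slc11a2 were not used here. Sites farther from the gene start were not searched, so a gene without a match in its windows may hold one elsewhere. The core was present for 3 of the 6 genes (Blvra, Blvrb and Slc11a1) and in 4 of their 9 windows, and 41.3% of all 32851 windows held it. The stricter form TGACNNNGC, whose matches are all among those of the core, was present for Blvra alone of the 6, in 1 of the 9 windows, and in 12.4% of all windows.

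The genes most like Hmox1 across the 12 libraries, by Pearson correlation of log2 CPM among 9203 genes with a mean of at least 5 CPM, were Psmd11 (r = 0.9955), Pitpna, Tifab, Hspa1b and Hsp90ab1. Psmd11 encodes a proteasome lid subunit, and Hspa1b and Hsp90ab1 encode heat shock chaperones. Hspa1b averaged 1.57, 3.21, 12.5 and 22.3 CPM in the control, CS-PA/CNP, PgLPS and combined groups. Those most like Slc40a1 were Idh1 (r = 0.9893), Lipa, Abcc3, Angptl2 and Baiap2. Lipa, the lysosomal acid lipase, averaged 2364, 2629.8, 743 and 1766 CPM in the same groups. Those most like Tfrc were Dhcr7 (r = 0.9896), Egr2, Cd300lb, Tlr13 and Ccnd1. Ccnd1, which encodes cyclin D1, averaged 344, 296, 75.3 and 187 CPM. The libraries of a group share their treatment, so these correlations mainly follow the 4 group means and are given as a description.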

How the data were processed

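RNA was read in 12 libraries, 3 per group, from total RNA on an Illumina sequencer, per the labels' protocols. The deposited table holds the authors' raw read counts per gene for each library, per the file headers, with a gene length. Its other 12 columns of values per library, in FPKM, were not used, and RPKM was computed here from counts, gene length and library totals. Tools named by the submitters' processing notes, with no role given, are DESeq 1.30.0, HTSeq 0.9.1, HISAT2 2.0.5 and cutadapt 1.15. No source used here gives the genome build or strand setting, and coordinates come only from GRCm38. Column names carry the letters C, M, L and LM, not spelled out in the labels and read as control, CS-PA/CNP, PgLPS and both, with a number that no label holds, so replicates are named by that number and nothing was paired.

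Counts were fitted in edgeR 4.0.16 (R 4.3.3, limma 3.58.1) with TMM factors (0.853 to 1.16), filterByExpr by group and 1 mean per group over all 12 libraries. The quasi-likelihood test was 2-sided, with Benjamini-Hochberg adjustment over 11656 genes and a threshold of 0.05. SE is the log2 change divided by the root of F. The number of libraries, 3 per group, limits the precision.

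The 10 genes and the lists were chosen with earlier results of these data known. From each list up to 3 tested genes with the smallest adjusted p per comparison were named, plus Hmox2, Bach1, Nfe2l2, Ncoa4, Alas1, Cd163, Cp, Hamp and Slc39a14. A few genes that this rule names are not reported here. Aco1 and Ireb2 were named after their values were seen. For Hmox1, Slc40a1 and Tfrc the 5 genes with the highest r were named, leaving out symbols of predicted genes. Marker lists covered macrophage, erythroid, neutrophil, stromal, lymphocyte (0.387 to 3.27 CPM) and dendritic cells (0.829 to 4.95 CPM). Alternatives were RLE factors, library totals, no filter, a filter at 5 CPM, DESeq2 1.42.0, only the groups compared, and leaving out each library. The fit was also run on simulated data with known changes, up and down in equal number, in a small part of the genes. That run held no shift across most genes, so it does not bear on the choice of scaling.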

Additional observations from a re-analysis of the deposited data

Results flagged for a closer look

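The log2 change with CS-PA/CNP differed with and without PgLPS, by the interaction term of edgeR's fit (adjusted p at most 0.05), for 6 of the 10 haem and iron genes, where 7.46% of all tested genes were called higher and 8.34% lower. The interaction, in log2 units, was 1.06 for Tfrc, 1.003 for Slc40a1, -0.70 for Fth1, -0.54 for Slc48a1, -0.45 for Slc11a1 and -0.32 for Slc11a2.

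Of the other named genes, the largest falls in the interaction belonged to genes that PgLPS raised: Lcn2 (-2.07), Cp (-1.78), Slc25a37 (-1.47), Spic (-1.31) and Fbxl5 (-1.05). Smaller values below 0 were found for Maff (-0.59), Slc25a28 (-0.59), Alas1 (-0.57), Mafg (-0.41), Nfe2l2 (-0.40) and Keap1 (-0.34). Values above 0 were found for Steap3 (0.80), Lrp1 (0.60), Hfe (0.49), Cpox (0.45) and Trf (0.35). PgLPS alone lowered each of these 5 genes against control. The interaction and PgLPS against control use the control and PgLPS libraries with opposite signs. Opposite directions in them are thus partly built in and are given as a description. With 1 library left out in turn, the call was lost in 9 of 12 fits for Cpox (adjusted p up to 0.148), in 8 for Maff (up to 0.157) and in 7 for Keap1 (up to 0.109). That of Trf was lost without PgLPS replicate 3 (0.0517).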

How the results depend on the processing

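Of 650 values of the 10 genes under the alternatives, 631 kept their call, 7 of them uncalled with a change of sign, 10 became called, 8 lost the call and 1, Ftl1 in both agents against control, reversed (-0.071 with library totals). Blvra in both agents against control became called with library totals (-0.61, adjusted p = 0.000102), no filter (0.0131), the filter at 5 CPM (0.0481), only the groups compared (0.0303) and without replicate 2 of both agents (0.0037). With 1 library left out, the genes called lower among the 10 in PgLPS against control numbered 2 to 4, the lowest without PgLPS replicate 1 or 3. Over all genes, calls in CS-PA/CNP against control numbered 949 to 1138, the lowest without CS-PA/CNP replicate 3, against 1431 with all libraries. Among named genes called in either fit, library totals reversed, in PgLPS against control, Bach1 (-0.41), Isca1 (-0.35), Pcbp1 (-0.25), Ppox (-0.18), Ireb2 (-0.15), Pcbp2 (-0.15), Nfe2l2 (-0.13), Iscu (-0.12) and Mafg (-0.027), and in both agents against control Hfe (-0.32), Ppox (-0.29), Ireb2 (-0.27), Pcbp2 (-0.15), Iscu (-0.11), Mafg (-0.094), Pcbp1 (-0.081) and Bach1 (-0.048). The cause was not tested. No paired analysis was possible because the numbers in the count columns match no replicate number of the labels.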
